A study of Mus musculus with 18 samples.

Results

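The superoxide-producing NADPH oxidases and the superoxide dismutases were described in the liver by 9 genes chosen by name, Cybb, Cyba, Ncf1, Ncf4, Rac2, Nox4, Sod1, Sod2 and Sod3, which are 9 of the 54532 genes in the deposited table. Liver RNA of 18 mice was sequenced, 6 in each of 3 groups. The normal control (NC) mice ate normal chow, the HFD mice ate a high-fat diet, and the SZ-A mice ate the same high-fat diet and received SZ-A, an alkaloid preparation from mulberry twig (Ramulus Mori). The study asked what SZ-A does in obesity and fatty liver. All mice were males of the strain C57BL/6J by the methods (C57BL/6 in the labels) and 6 weeks old on arrival. HFD feeding ran for 14 weeks before treatment, which then lasted 8 weeks in the labels and 6 weeks in the methods, with continued HFD feeding. HFD controls were given saline. The dose and the route of SZ-A in the sequenced mice are not given in the sources used here. NC6 is titled as a chow mouse but labelled with a high-fat diet, and was left in the NC group.

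NADPH oxidases pass electrons from NADPH to oxygen and so make superoxide. The phagocyte enzyme has a membrane core of gp91phox (Cybb) and p22phox (Cyba), and it works once cytosolic subunits, among them p47phox (Ncf1) and p40phox (Ncf4), and a Rac GTPase, Rac2 in blood cells, join it. In liver Cybb, Ncf1, Ncf4 and Rac2 are mainly genes of Kupffer cells and other leukocytes. Nox4, which also pairs with p22phox and mainly releases hydrogen peroxide, is expressed in hepatocytes and stellate cells, so Cyba is not particular to leukocytes. Superoxide dismutases turn superoxide into hydrogen peroxide. Sod1 is the copper and zinc enzyme of the cytosol, Sod2 the manganese enzyme of mitochondria and Sod3 the secreted copper and zinc enzyme of the extracellular matrix.

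The positions below are those of the deposited table (mm10, GRCm38), where all 9 are protein-coding genes and span the same bases as in GENCODE vM21. Cybb lies at chrX:9435252-9487771 on the minus strand, Cyba at chr8:122424776-122432930 (minus), Ncf1 at chr5:134220053-134229625 (minus), Ncf4 at chr15:78244801-78262580 (plus) and Rac2 at chr15:78559167-78572783 (minus). Nox4 lies at chr7:87246096-87398710 (plus), Sod1 at chr16:90220754-90226329 (plus), Sod2 at chr17:13006846-13040063 (plus) and Sod3 at chr5:52363791-52371418 (plus).

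Promoter sequence from RefSeq (GRCm38.p6) was matched for 6 of the 9 genes, namely Cybb, Cyba, Ncf1, Nox4, Sod1 and Sod2. The windows of 250 bases before to 50 after the start were searched on both strands for GAGGAA, the core bound by PU.1 and other ETS factors of myeloid cells, for TGACNNNGC, the core of the antioxidant response element, and for GGGACTTTC, an NF-kB site. The 3 stretches shown are those that held a match, with the matched letters in capitals. They are the 30 bases of the Cybb window around its match at chrX:9469298-9469327 (minus strand), which lies within the deposited span of the gene, and the 250 bases before the start of Sod1 at chr16:90220512-90220761 (plus strand) and of Sod2 at chr17:13007589-13007838 (plus strand).
Cybb: tgctgttttcatTTCCTCatcagaagaaga
Sod1: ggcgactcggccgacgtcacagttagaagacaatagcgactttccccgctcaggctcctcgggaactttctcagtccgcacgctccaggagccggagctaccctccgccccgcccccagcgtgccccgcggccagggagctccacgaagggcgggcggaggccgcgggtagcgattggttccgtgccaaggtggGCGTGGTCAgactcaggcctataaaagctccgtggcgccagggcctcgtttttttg
Sod2: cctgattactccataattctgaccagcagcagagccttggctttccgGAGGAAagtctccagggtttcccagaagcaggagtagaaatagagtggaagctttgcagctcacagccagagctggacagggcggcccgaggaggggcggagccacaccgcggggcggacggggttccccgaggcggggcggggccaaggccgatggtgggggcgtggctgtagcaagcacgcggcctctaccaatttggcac
GAGGAA, read as TTCCTC on the printed strand, began 9 bases after the start of Cybb, and it began 203 bases before the start of Sod2. That motif was held by 28.3% of the 32851 promoters in the RefSeq table. TGACNNNGC, on the opposite strand, began 56 bases before the start of Sod1 and was held by 12.4% of promoters. GGGACTTTC was in none of the 6 windows and in 0.353% of promoters. The motifs do not overlap one another in these windows, and a match describes letters only.

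Fragments on genes ranged from 17163191 to 20493907 per mouse. FPKM, fragments per kilobase of gene length scaled to a total for the library, is used for every level below. That total was not equal to the fragments on genes. It was 0.9325 to 1.025 times these in NC mice, 0.9983 to 1.141 in HFD mice and 0.9718 to 1.047 in SZ-A mice. A larger total lowers every level of that mouse. The hepatocyte markers were abundant in every mouse (summed FPKM of Alb, Apoa1, Apoa2, Ttr, Tat and Fah at least 32610), so the labelled tissue was matched by its defining genes. Replicate numbers name mice and carry no statement of separate litters or cages. NC5 had the lowest NC level of Cybb, Ncf1, Rac2 and Nox4. NC6, whose title and diet label conflict, had the highest NC level of Cybb, Cyba, Rac2 and Nox4.

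Sod1 was by far the most abundant of the 9 mRNAs per length, and the phagocyte genes Cybb, Rac2, Ncf1 and Ncf4 were the least abundant. In NC mice the mean FPKM was 181.6 ± 24.5 (SD, n = 6) for Sod1, 18.1 ± 0.389 for Sod2, 8.81 ± 1.47 for Cyba, 7.34 ± 1.23 for Sod3, 4.57 ± 1.39 for Nox4, 2.94 ± 0.942 for Cybb, 1.80 ± 0.443 for Rac2, 1.19 ± 0.257 for Ncf1 and 0.818 ± 0.241 for Ncf4. The order of the group means was the same in HFD and in SZ-A mice. In NC mice the ranges of neighbouring genes in that order overlapped from Cyba downward, whereas Sod1 and Sod2 each lay apart from the gene below.

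**Figure D1:**
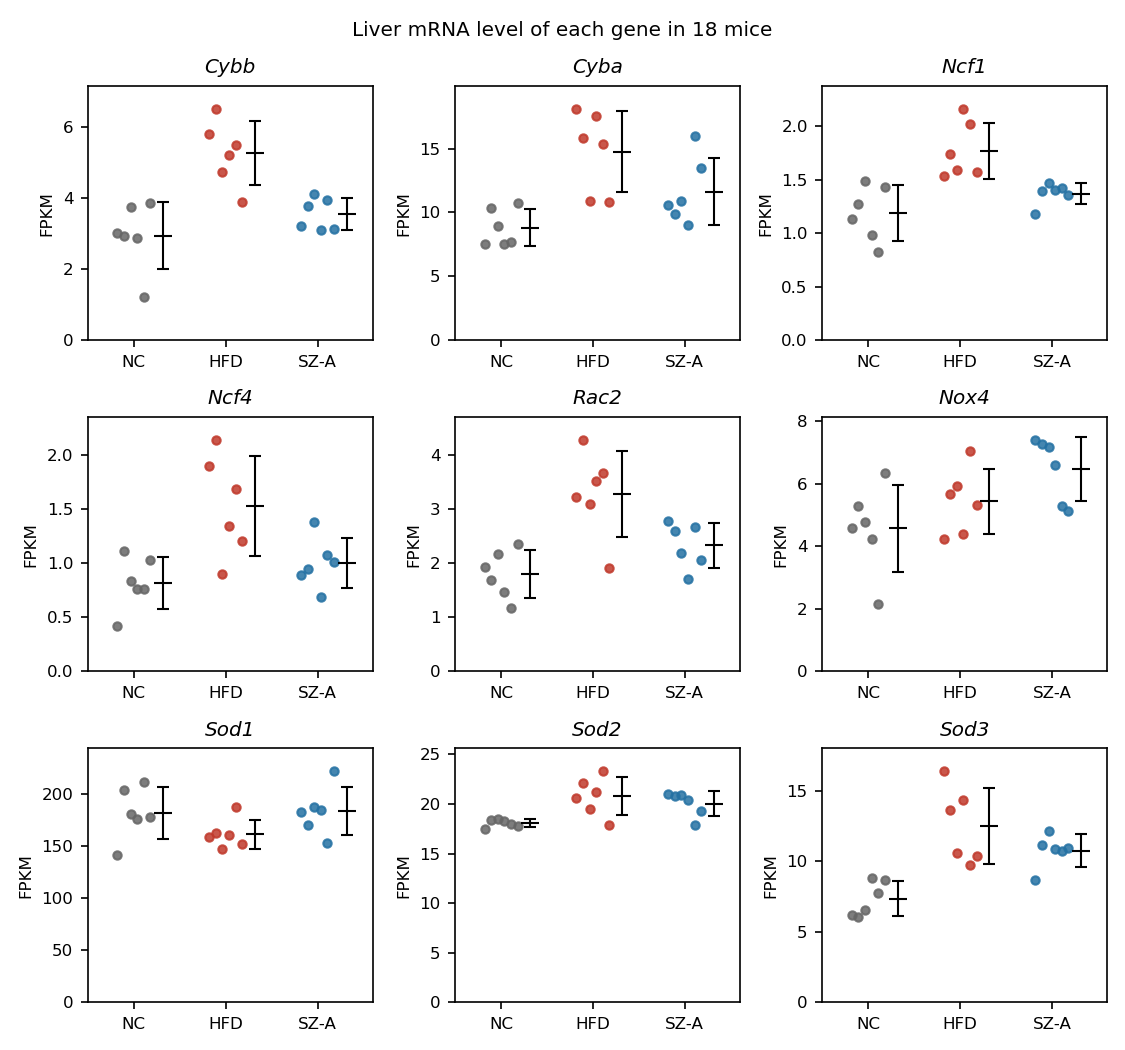
FPKM of each of the 9 genes (vertical axes, from 0) in NC, HFD and SZ-A mice. Each point is 1 mouse, and the black mark and bar beside each group are its mean and SD (n = 6). HFD points lie above all NC points for Cybb, Cyba, Ncf1 and Sod3.

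The comparison of HFD with NC asked what the diet did to these genes. Of the phagocyte oxidase genes, Cybb, Cyba, Ncf1 and Rac2 were higher in HFD mice, as was Sod3, by 1.46-fold to 1.84-fold. Nox4, Sod1 and Sod2 did not pass the test. Ncf4 was called too, but it reached the minimum mean of 1 FPKM for testing only through the HFD group, where it is high. Its call is therefore no support, and it is left out of the counts set against all genes. Of the other 8 genes 5 were called (limma, Benjamini-Hochberg adjusted p under 0.05 and fold change over 1.2), all of them higher, against 10.7% called higher among the 10216 genes tested. Counting either direction, 20.2% of all genes were called. The median log2 fold change of the 8 was 0.64, that of all genes tested was -0.03.

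Cybb, the catalytic core of the phagocyte oxidase, spanned 1.23 to 3.86 FPKM around a median of 2.97 in NC mice and 3.88 to 6.50 around a median of 5.35 in HFD mice. All HFD mice lay above all NC mice, and NC5 was the lowest of the 18. The log2 fold change was 0.88 ± 0.23 (SE, limma adjusted p = 0.0158). It was 0.66 without NC5 (limma adjusted p = 0.00423), and with no filter on low values Cybb was not called (limma adjusted p = 0.0545). Cyba, its membrane partner, spanned 7.51 to 10.8 FPKM around a median of 8.34 in NC mice and 10.8 to 18.1 around a median of 15.6 in HFD mice. The groups met at 10.8 but did not overlap, since NC6 at 10.76 was below HFD6 at 10.83. Its log2 fold change was 0.72 ± 0.15 (SE, limma adjusted p = 0.00498).

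Ncf1, the organizer subunit, spanned 0.826 to 1.49 FPKM around a median of 1.201 in NC mice and 1.54 to 2.16 around a median of 1.66 in HFD mice. The groups did not overlap, and the log2 fold change was 0.55 ± 0.15 (SE, limma adjusted p = 0.0201). Ncf4, a regulatory subunit, spanned 0.422 to 1.11 FPKM around a median of 0.7997 in NC mice and 0.898 to 2.13 around a median of 1.51 in HFD mice. HFD3, at 0.898, lay inside the NC range. Ncf4 rested on 15 to 99 fragments per mouse, and its log2 fold change was 0.82 ± 0.24 (SE, limma adjusted p = 0.0255). Without HFD1, without HFD2 or with no filter on low values (limma adjusted p = 0.0658), Ncf4 was no longer called.

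Rac2, the GTPase of blood cells, spanned 1.17 to 2.36 FPKM around a median of 1.81 in NC mice and 1.91 to 4.28 around a median of 3.38 in HFD mice. HFD6 alone lay inside the NC range. The log2 fold change was 0.83 ± 0.19 (SE, limma adjusted p = 0.00922).

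Sod3, the extracellular dismutase, spanned 6.04 to 8.82 FPKM around a median of 7.15 in NC mice and 9.71 to 16.4 around a median of 12.1 in HFD mice. Its groups did not overlap, and the log2 fold change was 0.75 ± 0.15 (SE, limma adjusted p = 0.00313). Leaving out Ncf4, the groups did not overlap for 4 of 8 genes (Cybb, Cyba, Ncf1 and Sod3), against 10.5% of all genes tested.

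Nox4, the constitutively active oxidase, spanned 2.16 to 6.34 FPKM around a median of 4.70 in NC mice and 4.24 to 7.06 around a median of 5.50 in HFD mice. The difference was within the spread of the mice (log2 fold change 0.29 ± 0.21, SE, limma adjusted p = 0.36). It was 0.0957 without NC5 and 0.40 without NC6 (limma adjusted p = 0.653 and 0.205). Sod2 spanned 17.5 to 18.5 FPKM around a median of 18.1 in NC mice and 17.9 to 23.3 around a median of 20.96 in HFD mice. Its log2 fold change was 0.20 ± 0.07 (SE, limma adjusted p = 0.0643), with 5 of 6 HFD mice above the NC mean. Sod1 spanned 141.7 to 211.0 FPKM around a median of 178.8 in NC mice and 146.6 to 187.0 around a median of 159.4 in HFD mice, and its log2 fold change was -0.16 ± 0.10 (SE, limma adjusted p = 0.265). The Sod1 difference turned to 0.03 when the FPKM of each mouse were set to the same total, a scaling that also moved the median of all genes from -0.03 to 0.15.

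**Figure D2:**
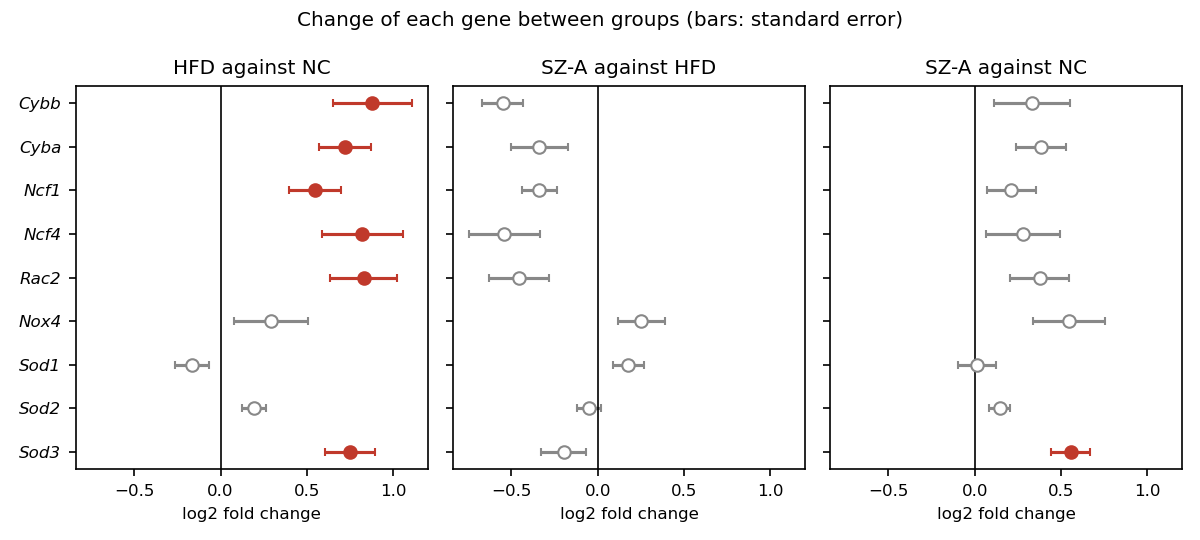
The log2 fold change (horizontal axes) of each gene in the 3 comparisons, as the first group named in a panel title minus the other. Bars are standard errors, and filled red points are called genes. The 6 called genes of HFD against NC lie right of 0, and only Sod3 is filled in SZ-A against NC. Of the 6, Ncf4 reached the filter for testing only through the HFD group.

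The comparison of SZ-A with HFD asked what the treatment did under the same diet. None of the 8 genes other than Ncf4 was called (limma, adjusted p under 0.05), against 0.147% of all genes tested (15 of 10216). Ncf4 was not called either, and with voom on whole fragments the count was 0 of 9 genes. Leaving out Ncf4, the count at an unadjusted p under 0.05 was 3 of 8 (Cybb, Ncf1 and Rac2, all lower), against 14.8% of all genes. The median log2 fold change of the 8 was -0.27, that of all genes tested 0.03. Both comparisons share the HFD mice, so their values are given side by side only.

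Cybb spanned 3.09 to 4.10 FPKM around a median of 3.50 in SZ-A mice, with all 6 below the HFD mean, and overlapped the HFD range only through HFD6 at 3.88. The log2 difference was -0.55 ± 0.12 (SE, limma adjusted p = 0.088). Cybb was called under a common sum per mouse (adjusted p = 0.0302), with sample weights, and without HFD6 (adjusted p = 0.0473). Ncf1 spanned 1.18 to 1.46 FPKM around a median of 1.40 in SZ-A mice, all below the lowest HFD mouse, with a log2 difference of -0.34 ± 0.10 (SE, limma adjusted p = 0.16). Leaving out Ncf4, it was the 1 gene of 8 without overlap between SZ-A and HFD, against 1.28% of all genes tested. Ncf1 was called under the common sum.

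Ncf4 spanned 0.684 to 1.38 FPKM around a median of 0.979 in SZ-A mice, with a log2 difference of -0.54 ± 0.20 (SE, limma adjusted p = 0.24). Rac2 ranged from 1.71 to 2.79 FPKM (median 2.39), with a log2 difference of -0.45 ± 0.17 (SE, limma adjusted p = 0.244). All 6 SZ-A mice lay below the HFD mean in both genes, but the ranges overlapped. Cyba ranged from 9.04 to 16.0 FPKM (median 10.8), and SZ-A5, at 16.0, was above the HFD mean. Its log2 difference was -0.34 ± 0.17 (SE, limma adjusted p = 0.368).

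Nox4 spanned 5.14 to 7.39 FPKM around a median of 6.89 in SZ-A mice and differed from HFD by 0.25 ± 0.14 (log2, SE, limma adjusted p = 0.409). Sod1 ranged from 152.5 to 221.7 FPKM (median 183.8) and differed by 0.18 ± 0.09 (log2, SE, limma adjusted p = 0.38). Over the main fit and the alternatives listed below, these log2 differences ranged from 0.0791 to 0.33 for Nox4 and from 0.0001 to 0.23 for Sod1. Sod2, from 17.87 to 21.01 FPKM (median 20.6), differed by -0.05 ± 0.07 (log2, SE, limma adjusted p = 0.791). Sod3, from 8.68 to 12.2 FPKM (median 10.9), lay below the HFD mean in all 6 mice, with a log2 difference of -0.20 ± 0.13 (SE, limma adjusted p = 0.514), which was -0.11 without HFD1. The ranges of these 4 genes overlapped with HFD.

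The comparison of SZ-A with NC set treated mice on the high-fat diet against mice on chow. Sod3 was the only gene of the 9 that was called, 1.47-fold higher in SZ-A mice (log2 fold change 0.56 ± 0.11, SE, limma adjusted p = 0.00957). Leaving out Ncf4, that was 1 of 8 genes, against 5.31% of all genes called higher and 9.6% called in either direction. All 6 SZ-A mice lay above the NC mean, although SZ-A1, at 8.68 FPKM, fell below the highest NC mouse. Nox4 was 1.46-fold higher with all 6 mice above the NC mean, yet it did not pass (log2 fold change 0.55 ± 0.21, SE, limma adjusted p = 0.118). It was called with sample weights, and its log2 fold change was 0.35 without NC5. The log2 differences of the phagocyte oxidase genes were 0.39 for Cyba, 0.38 for Rac2, 0.33 for Cybb, 0.28 for Ncf4 and 0.21 for Ncf1, with limma adjusted p from 0.111 to 0.45. Without NC5 those of Cybb and Ncf1 were 0.11 and 0.12, and without NC1 that of Ncf4 was 0.13. Sod2 differed by 0.15 (adjusted p = 0.147) and Sod1 by 0.01 (adjusted p = 0.955). The groups overlapped for all 8 genes other than Ncf4, against 5.5% of all genes that did not. They overlapped for Ncf4 as well.

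Ratios within a mouse do not depend on the scaling between mice, and 7 were tested in 3 comparisons by exact two-sided permutation tests with adjustment over the 21 tests (smallest possible p = 0.00216). The 3 dismutase mRNAs shifted in their proportions with the diet. Sod2 relative to Sod1 spanned 0.0857 to 0.124 around a median of 0.102 in NC mice, 0.118 to 0.136 around a median of 0.132 in HFD mice and 0.0874 to 0.123 around a median of 0.114 in SZ-A mice. The ratio was 1.28-fold higher in HFD than in NC mice (exact permutation p = 0.00433, adjusted p = 0.0303) and 0.853-fold in SZ-A relative to HFD mice (exact permutation p = 0.00433, adjusted p = 0.0303). SZ-A and NC did not differ beyond the spread (adjusted p = 0.398, exact permutation test). NC1 was the one NC mouse inside the HFD range. These calls and that of Sod3 to Sod1 below rest on all mice, since the adjusted p rose to as much as 0.0606 with HFD1, HFD2, HFD3 or HFD4 or some of the other mice left out, where the smallest exact permutation p is 0.00433.

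Sod3 relative to Sod1 spanned 0.0301 to 0.0508 around a median of 0.0408 in NC mice, 0.0524 to 0.104 around a median of 0.0787 in HFD mice and 0.048 to 0.071 around a median of 0.0623 in SZ-A mice. HFD and NC did not overlap, and the ratio was 1.89-fold higher in HFD (exact permutation p = 0.00216, the smallest possible, adjusted p = 0.0303). The SZ-A mean lay between theirs, at 0.772-fold of HFD (exact permutation adjusted p = 0.218) and 1.46-fold of NC (exact permutation adjusted p = 0.0568). As shares of the summed FPKM of the 3 dismutases, Sod1 made up 87.6% ± 1.43, 82.9% ± 1.53 and 85.5% ± 1.43 (SD, n = 6) in NC, HFD and SZ-A mice. Sod3 made up 3.58% ± 0.659, 6.45% ± 1.38 and 5.08% ± 0.725.

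**Figure D3:**
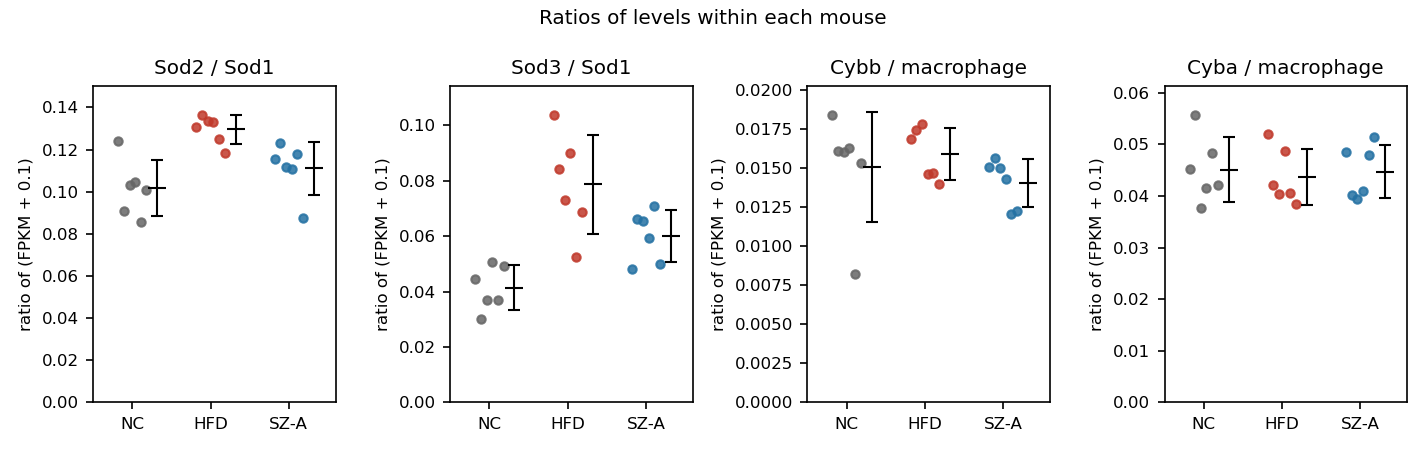
Ratios within each mouse of FPKM + 0.1 (vertical axes, from 0) for Sod2 and Sod3 relative to Sod1, and for Cybb and Cyba relative to the summed FPKM of 9 macrophage markers. Points are mice and the black marks and bars are means and SD (n = 6). HFD points for Sod3 relative to Sod1 all lie above the NC points, whereas the ratios to macrophage markers overlap in all groups.

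The other 5 ratios did not pass in any comparison (exact permutation adjusted p of at least 0.239). Ncf1 relative to Cybb differed by -0.33 (log2) between HFD and NC, Cyba relative to Cybb by -0.16, and Nox4 relative to Cyba by -0.43. Between SZ-A and HFD, Nox4 relative to Cyba differed by 0.59 (log2, exact permutation adjusted p = 0.239).

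In bulk liver RNA, fewer cells of a type and less RNA per cell cannot be told apart. Macrophage and pan-leukocyte markers moved with the phagocyte oxidase genes between HFD and NC. T cell and B cell markers, given below, were too low to test. Of 9 macrophage markers, 7 were higher in HFD than in NC mice, among them the lysosomal protein Cd68 (log2 fold change 1.35 ± 0.19, SE, limma adjusted p = 0.00048). Their summed FPKM was 161.5 to 257.9, 271.4 to 380.8 and 220.3 to 334.7 in NC, HFD and SZ-A mice, respectively, and none of the 9 was at 0. Of 5 pan-leukocyte markers, all 4 tested were higher in HFD than in NC, and their sums were 9.54 to 20.1, 22.7 to 33.2 and 16.2 to 22.0. Cd68 was also lower in SZ-A than in HFD mice (log2 fold change -0.64, limma adjusted p = 0.0451), the only marker called there. All 9 macrophage markers were lower there, but C1qa, C1qb and C1qc only by -0.13, -0.22 and -0.17 (log2).

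Relative to the summed macrophage markers, Cybb differed by 0.11 (log2) between HFD and NC (exact permutation adjusted p = 0.875), by -0.18 between SZ-A and HFD (adjusted p = 0.239) and by -0.06 between SZ-A and NC (adjusted p = 0.875). Cyba differed by -0.04, 0.03 and -0.01 (log2, exact permutation adjusted p of at least 0.875). The log2 change of Cybb between HFD and NC was 0.88 before and 0.11 after division by these markers, and that of Cyba 0.72 before and -0.04 after. Since 7 of the 9 markers were themselves called higher in HFD, dividing by them lowers any gene that rose. The ratio cannot tell the number of cells from the RNA per cell. The remainder depended on the markers taken, as with Kupffer cell markers in their place (chosen after seeing the data) Cybb differed by 0.31 between HFD and NC and by -0.40 between SZ-A and HFD (exact permutation adjusted p = 0.352 and 0.189), and with pan-leukocyte markers by -0.0535 and -0.015. A p that misses the threshold does not show equal ratios. NC5, at 0.00825, was well below the other NC mice in the Cybb ratio, and without it SZ-A lay below NC (log2 -0.23, exact permutation adjusted p = 0.0455).

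**Figure D4:**
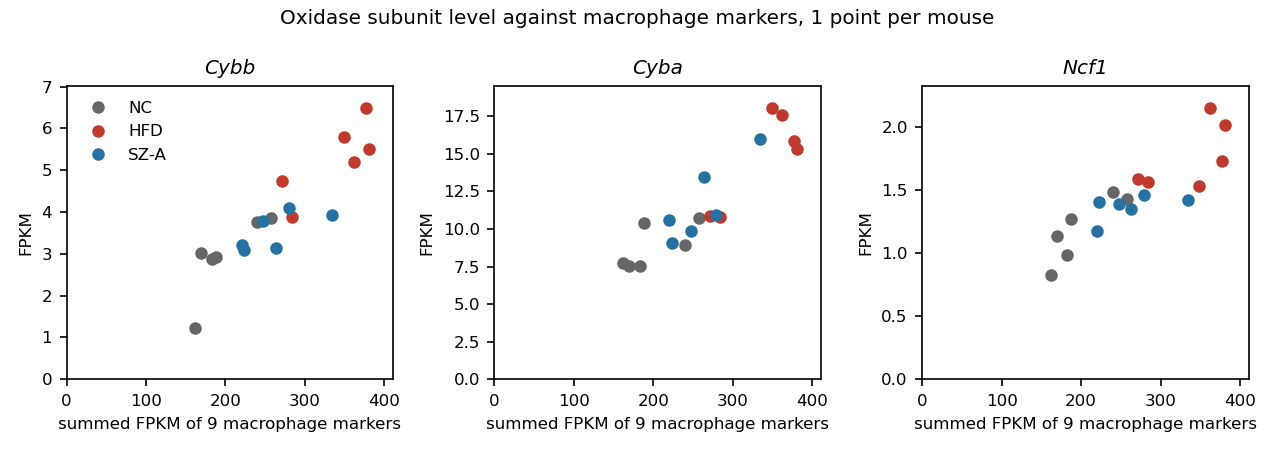
FPKM of Cybb, Cyba and Ncf1 (vertical axes) against the summed FPKM of 9 macrophage markers (horizontal axes), both from 0, with 1 point per mouse. Mice with higher marker sums tend to have higher levels of each subunit, and most HFD points lie at the upper right.

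Of 5 Kupffer cell markers only Cd5l was called higher in HFD than in NC mice, and the sums overlapped (79.1 to 162.7, 114 to 256.9 and 137.9 to 185.4 in NC, HFD and SZ-A). The 7 markers of monocytes and recruited macrophages were too low to test, yet their sums were 0.729 to 1.42, 2.32 to 14.0 and 1.23 to 3.54 in NC, HFD and SZ-A mice. Of the 8 neutrophil markers 3 were tested, and S100a8 and S100a9, which macrophages also express, were called higher in HFD than in NC mice. The sums of the 8 were 1.56 to 7.10, 6.00 to 20.7 and 4.89 to 19.4 in NC, HFD and SZ-A mice. Retnlg, the third one tested, had a log2 fold change of 1.38 between HFD and NC (limma adjusted p = 0.0583). Like Ncf4, it reached the filter only through the HFD group (means of 0.593, 1.66 and 0.989 FPKM in NC, HFD and SZ-A mice), so this p is no support. Of those too low to test, Csf3r averaged 0.541 FPKM in NC and 1.41 in HFD mice without overlap, Cxcr2 0.0645 and 0.177, and Elane 0.219 and 0.318. Ly6g and Mpo were at 0 in all NC mice and averaged 0.0692 and 0.00442 in HFD mice. Of 6 stellate cell markers 3, and of 6 endothelial markers 1, were higher in HFD than in NC mice. Among all genes tested 10.7% were called higher there, the share against which each count of markers higher in HFD stands. Of the 6 hepatocyte markers, Apoa1 and Tat were lower in HFD. T cell and B cell markers were too low to test in all groups. The T cell marker sums were 1.66 to 4.36, 1.65 to 2.72 and 1.45 to 3.01 FPKM in NC, HFD and SZ-A mice. Those of B cell markers were 0.297 to 2.14, 0.707 to 1.92 and 0.443 to 2.25 FPKM. Of 4 adipocyte markers only Cfd was tested, with means of 2.91, 52.4 and 7.54 FPKM in NC, HFD and SZ-A mice, while Adipoq and Plin1 averaged at most 0.202. The part of these cell types in the levels of the 9 genes was not tested.

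The remaining oxidase genes were mostly near the floor. Of 12, only Rac1, the widely expressed Rac, and Cybc1, the chaperone of gp91phox, passed the filter, and neither was called in any comparison. Nox3 was at 0 in every mouse. Of 7 regulators of the phagocyte oxidase, 4 were tested and, against 10.7% of all genes tested, 3 were higher in HFD than in NC mice. These were Vav1, a Rac exchange factor (log2 fold change 0.92 ± 0.16, SE, limma adjusted p = 0.00188), Arhgdib (0.78 ± 0.12, adjusted p = 0.00072), and Prkcd, a protein kinase C that phosphorylates p47phox (0.45 ± 0.14, adjusted p = 0.0417). None was called between SZ-A and HFD.

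Among 8 genes that supply metals to the dismutases 7 were tested. Between HFD and NC, 20.2% of all genes tested were called in either direction. Atox1, a copper chaperone, was higher in HFD than in NC mice (log2 fold change 0.33, limma adjusted p = 0.0327) and Slc30a10, a manganese exporter, was lower (-0.86, adjusted p = 0.0192). Ccs, the copper chaperone of Sod1, averaged 166, 145 and 183 FPKM in NC, HFD and SZ-A mice and was not called. Slc39a14, which imports zinc and manganese, was higher in SZ-A than in NC mice (0.39, adjusted p = 0.0395).

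Of 16 genes that remove hydrogen peroxide, 15 were tested, 3 were higher and 1 was lower in HFD than in NC mice. Of all genes tested, 20.2% were called in either direction there and 10.7% were called higher, shares that also stand beside the later counts of this paragraph. Gpx7, 1 of the 15, was not called and reached the filter only through the HFD group (means of 0.911, 1.38 and 0.876 FPKM in NC, HFD and SZ-A mice). Gpx1, the main cytosolic glutathione peroxidase, rose from 1080 to 1630 FPKM (log2 fold change 0.59, limma adjusted p = 0.00121) and was also higher in SZ-A than in NC (0.49, adjusted p = 0.0114). Txn1 (0.43) and Prdx6 (0.33) were the others that rose in HFD, and Txn2, the mitochondrial thioredoxin, fell by 0.30 on the log2 scale. Catalase (Cat) averaged 1030 FPKM in both NC and HFD mice. Of 8 other tested sources of superoxide or peroxide, Xdh (0.71), Aox1 (0.59) and Hao1 (0.58) were higher in HFD than in NC, and Hao1 in SZ-A than in NC (0.87, limma adjusted p = 0.00643). Of 5 tested genes of NADPH supply, G6pdx (0.57) and Pgd (0.37) of the pentose phosphate pathway were higher in HFD than in NC, and Me1 was lower in SZ-A than in NC (-0.54, limma adjusted p = 0.0175). No gene of these 6 lists was called between SZ-A and HFD, where only 15 of all 10216 genes tested were called (0.147%).

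Over the 18 mice, after the mean of each group was subtracted, the genes whose log2 level was most like each member were named as a description. They share the libraries and their depth with it. Cybb was most like Msn (r = 0.95), Mpeg1 and Slfn5. These stayed similar without NC5 (r = 0.73 to 0.82). Nox4 was most like Ghr (r = 0.95) and N4bp2, and Sod1 most like Uqcrq (r = 0.93), Agmat and Tomm7. Cyba was most like Armc7, Anxa3 and Cotl1, Ncf1 most like Wfdc17, Adgre4 and Dnase2b, and Ncf4 most like Timm44, Gm21811 and Sp100. Rac2 was most like Stab2, Tek and Agtrap, Sod2 most like Tmbim6, Rnf181 and Prodh2, and Sod3 most like Crtap, Colec11 and Tgfbi. Between members, Cybb and Rac2 had r = 0.77 (0.80 without NC5), while Cybb and Nox4 had r = 0.70 with NC5 and 0.17 without it.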

How the data were processed

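Poly-A RNA from the livers of 18 mice gave paired-end reads. The authors aligned them to mm10 (GRCm38). HISAT2 2.0.5 and featureCounts 1.5.0-p3 are named in the submitters' processing notes. The authors deposited FPKM per gene, with no counts. FPKM times gene length gave whole fragments for 100% of values (within 0.05 of a fragment), from which the depth of 17163191 to 20493907 fragments per mouse was taken.

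Groups and replicate numbers came from the sample titles. The 10216 genes whose FPKM averaged 1 or more across all mice were tested on log2(FPKM + 0.1) with limma 3.58.1 (R 4.3.3; lmFit, eBayes with trend), each comparison on its own 2 groups, and Benjamini-Hochberg adjustment over all genes tested. A gene was called at adjusted p under 0.05 and fold change over 1.2. A fold change on this scale understates low genes. Ratios within mice were tested by exact two-sided permutation (scipy 1.17.1), adjusted over 21 tests. The study used DESeq2 on counts, which was not repeated on FPKM. The fit was tested on simulated data. The 9 genes, the gene lists and the alternatives were chosen with earlier results of these data known. The alternatives were pseudocounts of 1 and 0.01, no filter or a mean of at least 5 FPKM, a common sum per mouse, median-ratio scaling, a single fit of all mice, voom on whole fragments, eBayes without trend, sample weights, no fold change threshold, a replicate block and each mouse left out. Of each list the called genes were named, at most 3 with the smallest adjusted p per comparison, and any gene used in a ratio. Ccs, Cat, Cybc1, Rac1, Nox3, Ly6g, Retnlg, Csf3r, Cxcr2, Elane, Mpo, Plin1 and Adipoq were named in addition, after their values had been seen. P-values measure the spread between these mice, and no source says how litters or cages were shared. Some genes that the naming rule covers are not reported here.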

Additional observations from a re-analysis of the deposited data

Results flagged for a closer look

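Cybb in the mouse NC5 was 1.233 FPKM, and the other 5 NC mice had 2.881 to 3.859. Its gap to the nearest mouse was 0.628 of the group's range, just above Dixon's critical value for a group of this size. It was the 1 value set apart in 27 groups tested, and chance sets apart about 1 in 20. NC5 was also the lowest NC mouse for Ncf1, Rac2 and Nox4.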

How the results depend on the processing

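The 6 genes called between HFD and NC, Ncf4 included, became 4 with no filter on low values (Cyba, Ncf1, Rac2, Sod3), 2 of 5 tested at a mean of at least 5 FPKM, 7 under a common sum per mouse (Sod2 added), and 5 to 6 with a mouse left out. Without NC6, whose title and diet label conflict, the same 6 were called. Their log2 fold changes then included 0.97 for Cybb, 0.78 for Cyba and 0.91 for Rac2. The 0 genes between SZ-A and HFD became 2 under a common sum, 1 with sample weights and 0 to 1 with a mouse left out (Cybb without HFD6). The 1 gene between SZ-A and NC became 2 with sample weights and stayed at 1 with any mouse left out.

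With the replicate block, 4 genes were called between HFD and NC (Ncf1, adjusted p = 0.0751, and Ncf4, 0.0542, were lost), 0 between SZ-A and HFD and 1 between SZ-A and NC. Correlations of same-numbered mice ranged from -0.12 to 0.29. Among SZ-A mice the same-numbered one was the closest to NC2, NC3, NC5 and HFD2, and for the other mice it was not. Whether equal numbers mark a shared cage or batch was not tested. Under the replicate block by exact sign flips, Sod2 to Sod1 (log2 0.36 for HFD against NC, -0.23 for SZ-A against HFD) and Sod3 to Sod1 (0.92, HFD against NC) had adjusted p = 0.131, and the smallest p of that design is 0.0312.

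With a mouse left out, the smallest exact p is 0.00433. The log2 ranges were then 0.31 to 0.42 (Sod2 to Sod1, HFD against NC), -0.26 to -0.16 (SZ-A against HFD), 0.83 to 1.03 (Sod3 to Sod1, HFD against NC), -0.49 to -0.29 (SZ-A against HFD) and 0.45 to 0.60 (SZ-A against NC). Adjusted p rose to at most 0.0606 for the ratios that had passed, and fell to 0.0455 for Sod3 to Sod1 without HFD5 (SZ-A against HFD) and without NC4 or SZ-A1 (SZ-A against NC).

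Some differences near 0 changed sign with a mouse left out. Their log2 ranges were -0.055 to 0.0653 (Sod1, SZ-A against NC), -0.23 to 0.0307 and -0.0248 to 0.24 (Cyba to Cybb, HFD and SZ-A against NC), -0.0509 to 0.18 and -0.23 to 0.0016 (Cybb to macrophage markers, HFD and SZ-A against NC), -0.095 to 0.0205, -0.0089 to 0.0857 and -0.059 to 0.054 (Cyba to macrophage markers, HFD against NC, SZ-A against HFD, SZ-A against NC), -0.17 to 0.0137 (Ncf1 to Cybb, SZ-A against NC) and -0.0014 to 0.31 (Nox4 to Cyba, SZ-A against NC). Sod1 between HFD and NC turned to 0.0287 under a common sum. Cybb to macrophage markers, HFD against NC, turned to -0.0651 with a pseudocount of 1. With denominators chosen after seeing the data, it was -0.0535 against pan-leukocyte markers, and Cyba was 0.16 (HFD against NC) and -0.19 (SZ-A against HFD) against Kupffer cell markers and 0.0137 (SZ-A against NC) against the mean log2 of the macrophage markers. The cause was not tested.

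Over all genes, a common sum moved the calls between HFD and NC from 1092 higher and 970 lower to 2100 and 334, and the all-gene median between SZ-A and HFD from 0.03 to -0.15. The 15 genes called between SZ-A and HFD were 0 without a filter or with the block, 26 at a mean of at least 5, 216 under a common sum, 35 in one fit, 233 with sample weights and 31 with voom. Calls between SZ-A and NC went from 981 to 564 without a filter and 1682 with sample weights, and between HFD and NC from 2062 to 1271 at a mean of at least 5. Depth limits Ncf4 most, at 15 to 99 fragments per mouse.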
